A study of Mus musculus with 18 samples.

Results

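Wild-type stomach was compared with wild-type duodenum in female C57BL/6 mice aged 2 months. The arrays were chosen by their tissue and genotype labels, 3 of stomach and 3 of duodenum, which is 6 of the 18 arrays in the series. The series also holds submandibular glands and the same 3 tissues of Car6-/- mice, which lack carbonic anhydrase VI, and no treatment is given for any animal. The 3 wild-type mice each gave all 3 tissues, but the labels do not say which stomach array and which duodenum array came from the same mouse. The labels name the organ only, not the part of the stomach or of the duodenum that was taken. The RNA is that of whole tissue pieces, so fewer cells of a type and less RNA per cell cannot be told apart in any result given here. Car6 itself was detected on none of the 6 arrays.

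The mouse stomach has a forestomach lined by keratinized squamous epithelium and a glandular part whose epithelium secretes acid, pepsinogens, mucus and peptide hormones. The glandular part ends in the antrum, which opens through the pylorus into the duodenum. The duodenum is lined by enterocytes that carry digestive hydrolases and nutrient transporters on a brush border, with goblet, Paneth and endocrine cells among them, and with mucous Brunner's glands below the mucosa at its start. The organs meet at a boundary set in the embryo by regional transcription factors, among them Sox2 and Barx1 on the gastric side and Cdx2 on the intestinal side.

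Signals of the 6 arrays were background-corrected and normalized together on a log2 scale, so every level below is a normalized log2 signal and every difference is stomach minus duodenum. The scale ran from 4.29 to 15.12 over the genes tested. A probe counts as detected on an array where its detection p, the share of background controls at least as bright, is under 0.01. Between 9648 and 11684 of 25697 probes were detected on an array. A gene was tested if detected on at least 3 of the 6 arrays, so a gene present in 1 organ alone could pass. Such a gene entered through that organ alone, so in every list its direction was set by the filter and is no separate result. Correlations across genes were 0.935 to 0.981 among stomach arrays, 0.967 to 0.980 among duodenum arrays and 0.773 to 0.838 between the organs.

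Of 8786 genes tested, 1956 (22.3%) differed between the organs at an adjusted p under 0.05, which is what "called" means below. The count was 2427 without stomach replicate 3, 1293 without stomach replicate 2, 1246 without duodenum replicate 2 and 1123 without duodenum replicate 3. The 1956 were 1065 (12.1%) higher in stomach and 891 (10.1%) higher in duodenum. Each count of list members called below stands against these shares. At least 2-fold differences were called for 637 genes (7.25%) in stomach and 660 (7.51%) in duodenum. Differences of at least 5 on the log2 scale numbered 32 in stomach and 86 in duodenum. For 2036 genes (23.2%) all stomach arrays lay above all duodenum arrays, for 1526 (17.4%) all stomach arrays lay below, and the sum was 3562 (40.5%). The median difference over all genes was 0.06, and 0.18 when arrays were scaled to a common median in place of quantiles. Where a gene is given as at least so many fold higher, the other organ detected it on none of its 3 arrays, so the fold is a lower bound, and the arrays of the organs did not overlap. Stomach replicate 3 stood apart from the other stomach arrays, as described below for pancreatic, skeletal muscle and Reg genes.

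**Figure D1:**
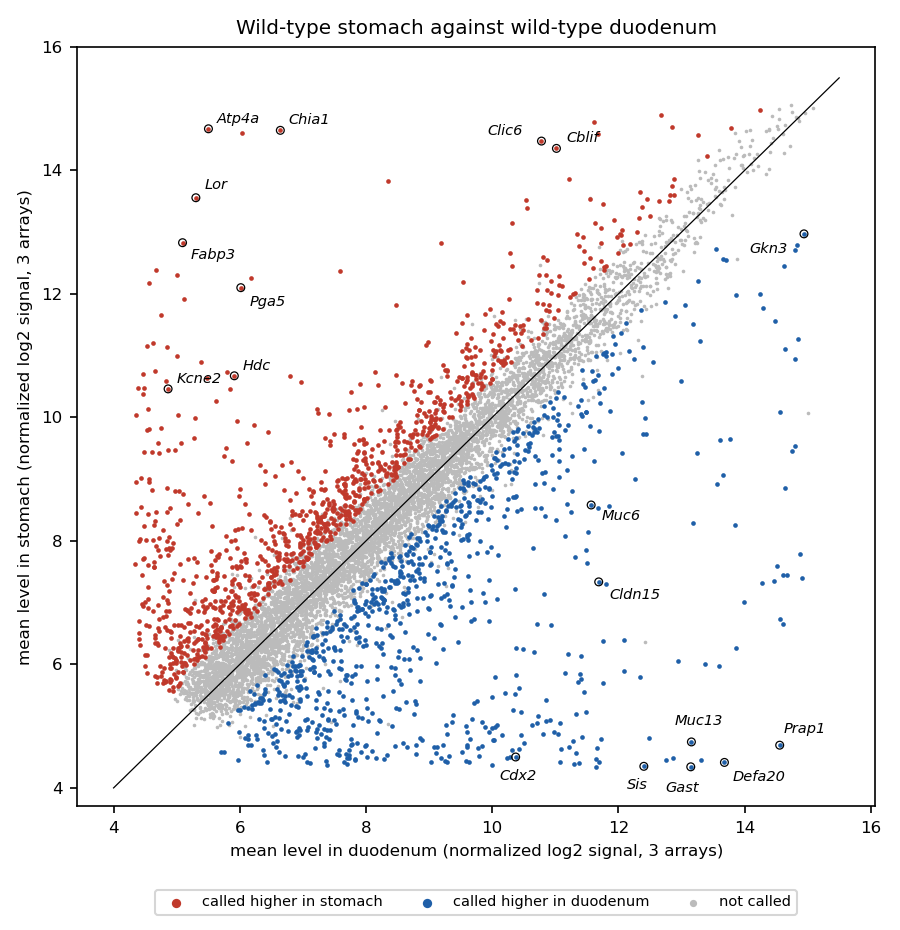
Mean normalized log2 signal of 8786 genes in wild-type stomach (vertical axis) and wild-type duodenum (horizontal axis), 3 arrays each. Red points are the 1065 genes called higher in stomach, blue points the 891 called higher in duodenum, grey points are not called, the line marks equal levels, and genes such as Atp4a and Gast lie along the edges where 1 organ is near background.

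Transcription factors that place tissues along the gut separated the organs. Of 28 intestinal or endodermal factors on the array, 6 were below the detection filter and 22 were tested, of which 13 were called higher in duodenum, against 10.1% of all genes, and 2 were called higher in stomach. The median difference of the list was -1.54, against 0.06 over all genes. Of the 22, 7 were detected on no stomach array and passed the filter through duodenum alone, which fixed their direction. Cdx2, the homeobox gene that sets intestinal identity, had 4.37, 4.52 and 4.60 in stomach, against 9.93, 10.59 and 10.60 in duodenum. No stomach array detected Cdx2, and the duodenum was at least 14.5-fold higher (log2 difference -5.87, SE 0.23, adjusted p = 6.07e-06). Vdr, the receptor for the active form of vitamin D, was undetected on the stomach arrays and at least 19.9-fold higher in duodenum (log2 difference -5.77, SE 0.27, adjusted p = 1.19e-05). Onecut2, a cut-homeodomain factor of the proximal intestine, was at least 11.3-fold higher in duodenum, and Creb3l3, a lipid-responsive factor of enterocytes and liver, at least 4.26-fold.

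Pdx1, a homeobox gene of pancreas, duodenum and antrum, had 4.68, 5.94 and 5.50 in stomach, against 9.43, 9.74 and 9.97 in duodenum. Its stomach values were low but 2 of the 3 stomach arrays detected it. The homeobox gene Isx, which limits vitamin A uptake by enterocytes, was at least 2.30-fold higher in duodenum, and the nuclear receptor Nr5a2 at least 2.58-fold. Hnf4a, a nuclear receptor of gut and liver epithelium, was detected in both organs and differed by -1.79 (SE 0.26, adjusted p = 0.00253). Klf5, a factor of proliferating crypt cells, differed by -1.30, the bile acid receptor Nr1h4 by -1.91 and Cdx1 by -2.38. The xenobiotic receptor Nr1i3 was at least 1.91-fold higher in duodenum. Nr1i2, its relative, differed by -1.21 (adjusted p = 0.0354), and that call ended without 1 of 4 arrays, namely stomach replicate 1 or 2 or duodenum replicate 2 or 3 (adjusted p up to 0.126), or with median scaling (adjusted p = 0.0974).

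On the gastric side, 11 of 14 factors on the array were tested and 5 were called higher in stomach, against 12.1% of all genes, and 2 higher in duodenum. The Iroquois homeobox genes led them. Irx5 had 7.89, 7.91 and 8.34 in stomach, against 4.89, 4.75 and 4.49 in duodenum, with no duodenum array detecting it, and was at least 3.17-fold higher in stomach. Irx3 differed by 3.29 (adjusted p = 0.000142), and Irx2 was at least 2.29-fold higher in stomach. Hoxa5, a homeobox gene of the foregut mesenchyme, differed by 2.03 and Barx1, needed for stomach mesenchyme to direct gastric fate, by 1.30 (SE 0.19, adjusted p = 0.00243). Sox2, the gastric epithelial factor, was weak, with 6.09, 6.08 and 6.51 in stomach, against 5.80, 5.73 and 5.26 in duodenum. The Sox2 groups did not overlap, and its difference did not pass the test (log2 difference 0.63, SE 0.22, adjusted p = 0.0810). Foxa2 and Gata4 come from the endodermal list. Foxa2, a forkhead factor, was higher in stomach by 1.77 (adjusted p = 0.000222). Gata4 was higher in stomach by 0.74 (adjusted p = 0.0359), a call that ended without stomach replicate 1 or 2 or duodenum replicate 2 or 3 (adjusted p up to 0.121) and left 1 of that list higher in stomach. Nkx2-3, a factor of gut mesenchyme, and Tbx3, a T-box factor, were on the gastric list but higher in duodenum, with differences of -2.09 and -2.55. Foxq1, a forkhead gene of mucous cells, Sox21 and Foxf1 were detected on every array in overlapping ranges. Of the 11 gastric factors, only Irx2 and Irx5 were detected on no duodenum array, which fixed their direction.

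**Figure D2:**
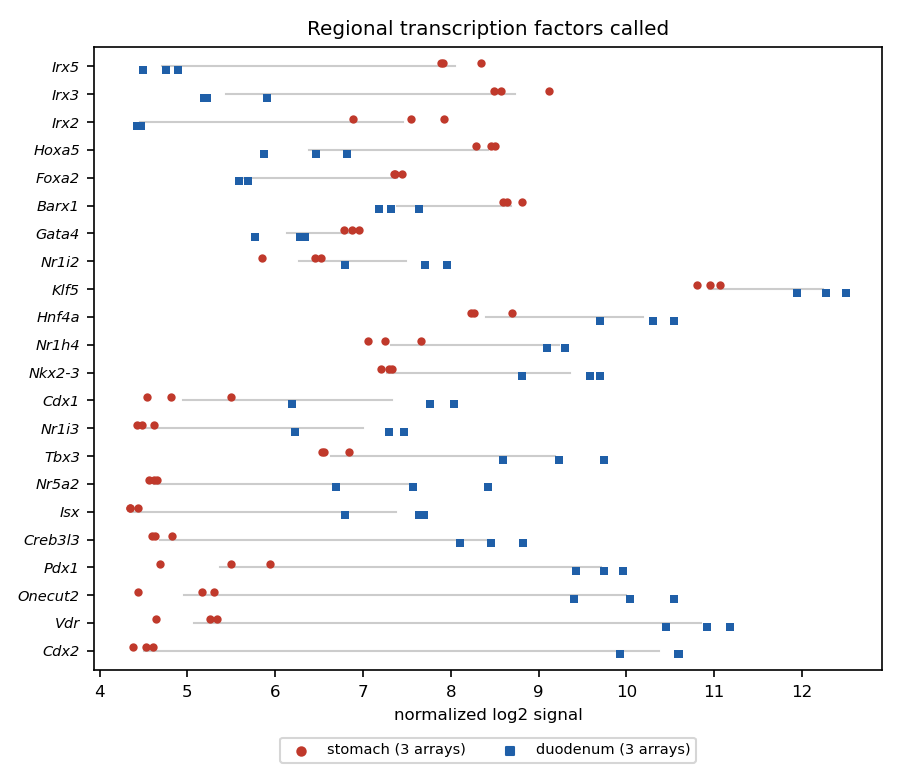
Normalized log2 signals of the 22 called regional transcription factors in wild-type stomach (red circles) and wild-type duodenum (blue squares), 1 point an array, ordered from the highest to the lowest difference of stomach minus duodenum. Grey lines join the means of the organs, from Irx5 at the top to Cdx2 at the bottom, whose stomach arrays lie between 4.37 and 4.60.

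Promoter windows are shown for genes on which the comparison turns, Sis and Treh for duodenum, Atp4a for stomach, Gkn1 held by both and Gast. Capitals mark letters that regional factors, or AP-1, which is in neither regional list, are known to bind. Each window is RefSeq sequence of build GRCm38.p6, 250 bases before to 50 after the gene's start, read on the gene's strand. The letters searched on both strands were TTTATG for CDX factors, GTTAAT as a half-site of HNF1, CAAAGNNCA for HNF4, AGATAA for GATA factors and TGANTCA for AP-1. Sis, sucrase-isomaltase, lies at chr3:72967814-72968113 on the minus strand and holds the CDX letters and an HNF1 half-site. Treh, trehalase, at chr9:44672983-44673282 on the plus strand holds the HNF4 letters. Atp4a at chr7:30711959-30712258 on the plus strand also holds the HNF4 letters. Gkn1, gastrokine 1, at chr6:87350866-87351165 on the minus strand holds GATA and AP-1 letters. Gast, gastrin, at chr11:100334157-100334456 on the plus strand holds none of the letters searched.
Sis: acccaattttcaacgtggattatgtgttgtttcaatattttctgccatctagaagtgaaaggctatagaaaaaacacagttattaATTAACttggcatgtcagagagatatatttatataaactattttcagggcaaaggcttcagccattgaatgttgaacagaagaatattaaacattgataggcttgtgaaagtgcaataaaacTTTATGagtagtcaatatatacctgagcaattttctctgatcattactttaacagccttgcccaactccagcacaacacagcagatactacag
Treh: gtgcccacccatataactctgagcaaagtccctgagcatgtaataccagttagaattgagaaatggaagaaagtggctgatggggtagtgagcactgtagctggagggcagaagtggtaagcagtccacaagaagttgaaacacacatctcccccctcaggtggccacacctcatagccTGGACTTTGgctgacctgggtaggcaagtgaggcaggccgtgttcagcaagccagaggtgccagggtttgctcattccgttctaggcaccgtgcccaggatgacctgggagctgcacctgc
Atp4a: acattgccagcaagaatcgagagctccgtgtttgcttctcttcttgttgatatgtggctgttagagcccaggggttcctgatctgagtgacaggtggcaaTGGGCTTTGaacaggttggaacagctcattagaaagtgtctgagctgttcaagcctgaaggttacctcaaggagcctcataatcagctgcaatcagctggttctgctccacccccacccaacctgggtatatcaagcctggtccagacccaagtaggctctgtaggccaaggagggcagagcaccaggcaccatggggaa
Gkn1: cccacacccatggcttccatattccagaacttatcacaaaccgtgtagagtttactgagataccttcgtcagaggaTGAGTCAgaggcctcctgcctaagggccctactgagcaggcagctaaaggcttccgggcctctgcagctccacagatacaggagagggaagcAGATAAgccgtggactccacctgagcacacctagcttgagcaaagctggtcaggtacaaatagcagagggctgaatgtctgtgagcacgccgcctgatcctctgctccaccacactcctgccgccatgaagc
Gast: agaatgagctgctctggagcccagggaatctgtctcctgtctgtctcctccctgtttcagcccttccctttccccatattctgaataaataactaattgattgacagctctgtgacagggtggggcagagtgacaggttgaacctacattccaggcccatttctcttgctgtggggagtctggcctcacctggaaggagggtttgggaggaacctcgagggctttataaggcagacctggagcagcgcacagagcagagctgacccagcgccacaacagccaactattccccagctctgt

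Over windows of genes called and at least 8-fold higher, the letters were counted by organ. HNF4 letters stood in 2 of 86 stomach windows (2.33%) and 26 of 164 duodenum windows (15.9%), against 5.25% of 8570 windows of all tested genes and 6.36% of all 32851 windows in the table. HNF1 half-sites stood in 6.98% of stomach and 14.02% of duodenum windows, against 4.68% of tested and 7.10% of all windows. CDX letters stood in 10.5% of stomach and 17.1% of duodenum windows, against 6.87% of tested and 11.9% of all windows. AP-1 letters ran the other way, in 15.12% of stomach and 10.4% of duodenum windows, against 5.71% of tested and 7.81% of all windows. GATA letters stood in 9.30% of stomach and 15.9% of duodenum windows, against 6.67% of tested and 11.2% of all windows. The stomach windows belong to 68 of 92 genes and the duodenum windows to 136 of 165, and no test was made of these shares, which describe letters and not binding.

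Genes of the acid-secreting parietal cells were high in stomach. Of 19 parietal genes on the array, 16 were tested and 13 were called, all higher in stomach, with a median difference of 3.30. Atp4a, the catalytic subunit of the gastric proton pump, had 14.84, 14.96 and 14.22 in stomach, against 6.999, 4.55 and 4.96 in duodenum. Atp4b, the pump's other subunit, had 14.64, 14.57 and 14.63 in stomach, against 8.58, 4.91 and 4.60 in duodenum. Both lay near the top of the scale on each stomach array, and only duodenum replicate 1 detected either. The differences were 9.17 (SE 0.59, adjusted p = 4.26e-05) and 8.58 (SE 0.93, adjusted p = 0.000583).

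Channels that return potassium to the pump were also higher in stomach. Kcne2, the channel subunit that pairs with Kcnq1 in parietal cells, had 10.31, 10.29 and 10.79 in stomach, against 4.65, 5.11 and 4.84 in duodenum and was at least 14.6-fold higher in stomach. Kcnj15, an inward rectifier, differed by 5.52 and the chloride channel protein Clic6 by 3.69. Slc4a2, which exchanges chloride for bicarbonate at the basal side, differed by 2.98 (SE 0.20, adjusted p = 5.26e-05) and was detected on every array of both organs. The nuclear receptor Esrrb was at least 4.22-fold higher in stomach. The receptors that trigger acid secretion, Hrh2 for histamine and Cckbr for gastrin, were undetected in duodenum and at least 3.07-fold and 2.88-fold higher in stomach. Kcnq1 differed by 1.32 (adjusted p = 0.0235) and the creatine kinase Ckb by 0.89 (adjusted p = 0.0246). The Kcnq1 call ended without stomach replicate 1 or 2 or duodenum replicate 2 or 3 (adjusted p up to 0.0930), and the Ckb call without stomach replicate 1 or 2 or duodenum replicate 1 or 2 (up to 0.0789) or with median scaling (adjusted p = 0.121). The muscarinic receptor Chrm3, the exchanger Slc9a4 and carbonic anhydrase 2, Car2, were detected in both organs without passing the test. Without stomach replicate 3, Slc9a4 and Car2 passed (adjusted p = 0.00665 and 0.00809), and Slc9a4 also with median scaling (adjusted p = 0.0395).

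Chief cells, which secrete digestive enzymes at the base of gastric glands, were represented by 9 genes on the array, of which 8 were tested and 4 called higher in stomach. Pga5, a pepsinogen, had 12.52, 12.001 and 11.79 in stomach, against 6.33, 6.15 and 5.57 in duodenum (log2 difference 6.09, SE 0.27, adjusted p = 1.13e-05). Cblif, the gastric intrinsic factor that carries vitamin B12, had 14.50, 14.47 and 14.10 in stomach, against 10.99, 11.16 and 10.91 in duodenum (log2 difference 3.34, SE 0.19, adjusted p = 2.45e-05). Chia1, an acidic chitinase, had 14.75, 14.56 and 14.64 in stomach, against 10.19, 5.32 and 4.42 in duodenum. Its duodenum values ranged widely, since replicate 1 stood far above the others, and the difference was 8.01 (SE 1.29, adjusted p = 0.00405). Duodenum replicate 1 was also the array that detected Atp4a and Atp4b. Pgc, the other main pepsinogen gene, was bright in both organs, as described below. Rab3d, Tnfrsf19 and Bhlha15 were also detected on all 6 arrays, with differences of 0.24, 0.61 and -0.02. None of them passed the test (adjusted p = 0.604, 0.0892 and 0.987).

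Endocrine genes of the stomach lay on both sides. Of 6 on the array, 5 were tested, 3 were called higher in stomach and 1, Gast, higher in duodenum. The remaining gene, Rgs4, was detected in both organs, differed by 0.53 and did not pass (adjusted p = 0.233). Hdc, which makes histamine in enterochromaffin-like cells, had 11.01, 10.48 and 10.54 in stomach, against 6.11, 5.84 and 5.80 in duodenum (log2 difference 4.76, SE 0.21, adjusted p = 1.05e-05). Ghrl, ghrelin, the appetite hormone, had 14.54, 14.85 and 14.98 in stomach, against 11.77, 11.67 and 11.39 in duodenum, and Sst, somatostatin, which restrains acid secretion, had 12.63, 12.51 and 12.21 in stomach, against 10.47, 10.27 and 10.19 in duodenum. For each of the 3 genes all stomach arrays exceeded all duodenum arrays, by 3.18 for Ghrl (adjusted p = 3.65e-05) and 2.14 for Sst (adjusted p = 0.000204), and all were detected in both organs. Chga, a protein of hormone granules, was higher in stomach by 2.39 (adjusted p = 0.000692), whereas its relative Chgb was higher in duodenum, with a difference of -4.77 (adjusted p = 6.67e-05).

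Squamous epithelium, the lining of the forestomach, supplied many of the genes with the highest fitted differences. Of 31 squamous genes on the array, 23 were tested and 20 were called, all higher in stomach, and 17 were detected on no duodenum array. Those 17 passed the filter through the stomach arrays alone, which fixed their direction, and 8 others on the array were below the filter. Lor, loricrin of the cornified envelope, had 14.49, 12.05 and 14.14 in stomach, against 5.998, 5.02 and 4.89 in duodenum and was at least 122-fold higher in stomach (log2 difference 8.25, SE 0.62, adjusted p = 9.86e-05). Krtdap, a keratinocyte differentiation protein, was at least 54.2-fold higher in stomach, Krt13, a keratin of upper squamous layers, at least 47.1-fold, and Krt14, a basal layer keratin, at least 33.1-fold. Cnfn, cornifelin, and Sprr3, another envelope protein, were at least 23.1-fold and 14.95-fold higher in stomach. The protease gene Asprv1 (at least 51.7-fold) and the envelope gene Rptn (at least 24.3-fold), which are in no list, are known from the cornified layer of skin. The stomach arrays were not alike. The list averaged 10.01, 8.04 and 10.28 on stomach replicates 1, 2 and 3, against 5.46, 5.23 and 5.27 on the duodenum arrays, so replicate 2 was lower than the other stomach arrays.

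Another 3 genes among the 15 with the highest fitted differences in stomach were in no list. Fabp3, a cytoplasmic fatty acid binding protein best known from heart, had 12.66, 12.86 and 12.97 in stomach, against 5.27, 5.15 and 4.86 in duodenum and was at least 73.3-fold higher in stomach (log2 difference 7.74, SE 0.19, adjusted p = 6.40e-07). Bpifb1, a secreted mucosal protein of the BPI fold, averaged 11.91 ± 0.999 in stomach, against 5.12 ± 0.277 in duodenum (SD, n = 3 each). The groups lay far apart, with a difference of 6.79 (SE 0.46, adjusted p = 5.34e-05). Gm94, a gene model, was at least 17.9-fold higher in stomach. Among metabolic genes, Lpl, lipoprotein lipase of fat and muscle, differed by 3.62 (adjusted p = 0.00223). Of 12 retinoid and alcohol metabolism genes tested, of 24 on the array, 4 were called higher in stomach and 3 higher in duodenum. Adh7, the stomach alcohol dehydrogenase that also oxidizes retinol, differed by 2.84 (adjusted p = 0.00158), the aldehyde dehydrogenase Aldh3a1 by 2.84 and the retinal dehydrogenase Aldh1a1 by 1.29. Of 9 carbonic anhydrase genes tested, of 12 on the array, 2 were called, near the 22.3% of all genes called in either direction. Car9 and Car5b, a membrane and a mitochondrial carbonic anhydrase, were higher in stomach by 1.28 and 2.08 (adjusted p = 0.00473 and 0.00145).

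**Figure D3:**
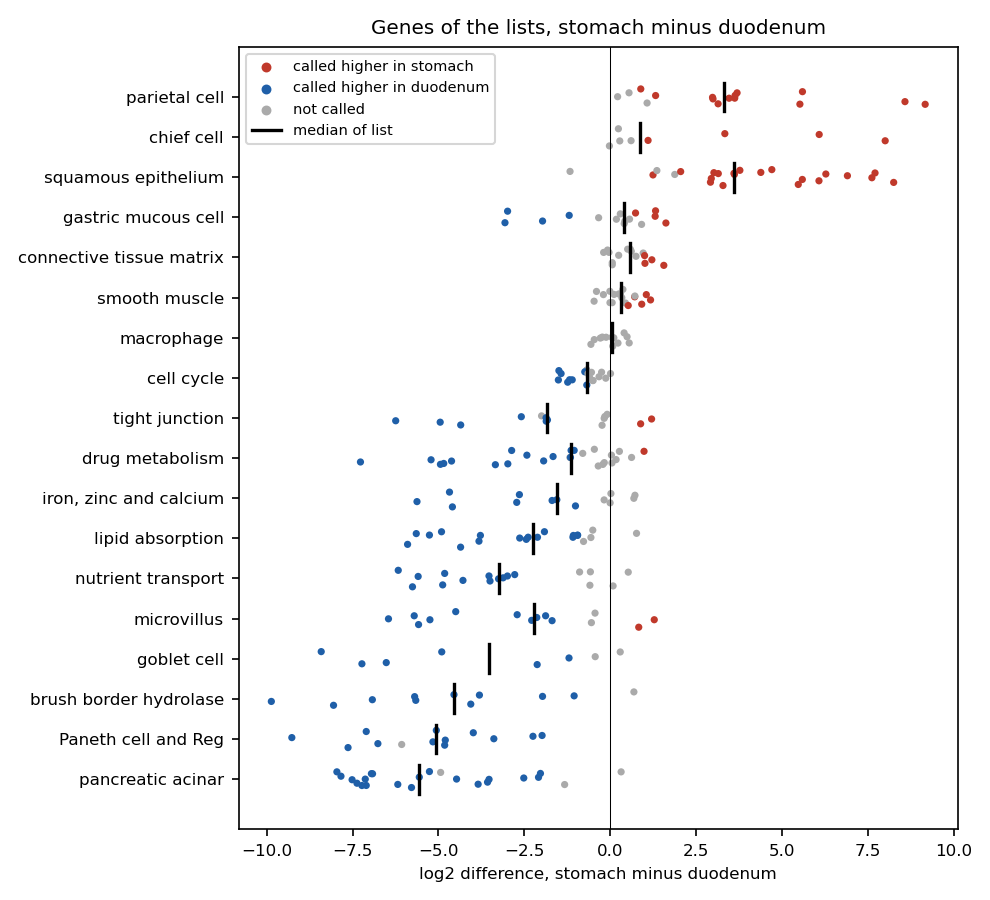
Differences of stomach minus duodenum (log2) for the tested genes of 18 lists, 1 point a gene, with the list median as a black bar. Parietal and squamous genes lie to the right, pancreatic, Paneth cell and brush border genes to the left, and gastric mucous cell genes (median 0.41) on both sides of 0.

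Detection of gastric genes in both organs differed between lists. It took in every mucous gene tested but only 7 of 16 parietal genes. Over the parietal, chief, mucous and hormone lists, 44 genes were tested and 32 were detected on all 6 arrays, against 80.2% of all genes tested. Outside the mucous list they were 7 of 16 parietal, 6 of 8 chief and 4 of 5 hormone genes. Of the 32, 13 were called higher in stomach, 4 higher in duodenum and 15 were not called. Another 4 genes, all parietal, were detected on every stomach array and no duodenum array, and 7 on every stomach array and some duodenum arrays. All 15 mucous cell genes tested, of 17 on the array, were detected on all 6 arrays. Of these 15, 4 were called higher in stomach and 4 higher in duodenum.

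The secreted products of gastric surface mucous cells were among the brightest signals in both organs. Tff1, a trefoil peptide that accompanies gastric mucus, had 15.05, 15.02 and 14.75 in stomach, against 14.72, 14.96 and 14.60 in duodenum. Gkn1 and its relative Gkn2 are secreted by surface cells, and Gkn1 had 14.56, 14.10 and 14.15 in stomach, against 13.96, 13.95 and 13.67 in duodenum while Gkn2 had 14.57, 14.63 and 14.73 in stomach, against 14.24, 14.40 and 14.40 in duodenum. Muc5ac, the gel-forming mucin of gastric surface cells, had 14.65, 14.65 and 13.23 in stomach, against 13.73, 13.11 and 12.95 in duodenum. The duodenum values lay below or among the stomach values for these genes and within 2 log2 units of them. The differences were 0.18 for Tff1, 0.41 for Gkn1, 0.30 for Gkn2 and 0.91 for Muc5ac, and none passed the test (adjusted p = 0.539, 0.184, 0.239 and 0.154).

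The aspartic protease Ctse (0.56, adjusted p = 0.157) and the trefoil gene Tff2 of neck and gland mucous cells (-0.34, adjusted p = 0.172) did not pass either. Capn8, also of the mucous list, differed by 0.43 and did not pass (adjusted p = 0.520). Stomach replicate 3 was the lowest stomach array for Muc5ac and Ctse, and without it both passed, higher in stomach (adjusted p = 0.00855 and 0.0463). Pgc had 14.61, 14.89 and 14.50 in stomach, against 14.45, 14.49 and 14.22 in duodenum, with no overlap between the organs and a difference of 0.28 (SE 0.18, adjusted p = 0.327). Psca, a surface antigen of gastric epithelium, was higher in stomach by 1.32 (adjusted p = 0.00382). Muc1, a membrane mucin, differed by 1.62, the sulfotransferase Sult1c2 by 1.31 and Mucl3 by 0.74 (adjusted p = 0.0187, 0.0275 and 0.0321). These 3 calls ended without stomach replicate 1 or 2 or duodenum replicate 2 or 3 (adjusted p up to 0.0801, 0.100 and 0.102), and leaving out any of those arrays left 1 mucous gene called higher in stomach. The Mucl3 call also ended with median scaling (adjusted p = 0.138). For genes this bright, 34 of which averaged at least 14 in both organs over the whole array, the part of the upper end of the scale in the size of a difference was not tested.

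The 4 genes of the mucous list that were called higher in duodenum, Muc6, Aqp5, Gkn3 and A4gnt, are described as a group because of their direction. Muc6, the mucin of neck cells, antral glands and Brunner's glands, had 8.36, 8.75 and 8.64 in stomach, against 11.86, 11.79 and 11.06 in duodenum (log2 difference -2.99, SE 0.25, adjusted p = 0.000175). Aqp5, a water channel of pyloric and Brunner's glands, had 7.62, 7.68 and 8.96 in stomach, against 11.48, 11.57 and 10.39 in duodenum (log2 difference -3.06, SE 0.44, adjusted p = 0.00240). Gkn3, a gastrokine of neck and antral gland cells, had 12.05, 12.85 and 14.03 in stomach, against 14.91, 15.02 and 14.89 in duodenum (log2 difference -1.97, SE 0.44, adjusted p = 0.0161). All duodenum arrays exceeded all stomach arrays for each. A4gnt, which adds the terminal sugar that marks gland mucin, differed by -1.19 (adjusted p = 0.0142). The A4gnt call ended without duodenum replicate 2 (adjusted p = 0.0585), which left 2 of the 4 called, and the Gkn3 call ended without any 1 duodenum array (adjusted p up to 0.0548).

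Gast, the hormone of G cells in the antrum and proximal duodenum that drives acid secretion, was not detected in stomach and was bright in duodenum. It had 4.29, 4.39 and 4.34 in stomach, against 13.57, 13.23 and 12.65 in duodenum. No stomach array detected it and all 3 duodenum arrays did, so the duodenum was at least 95.9-fold higher (log2 difference -8.81, SE 0.25, adjusted p = 1.11e-06). Prap1, Defa20, Muc13 and Sis were likewise undetected in stomach, so their order among these genes is not known. Unlike Gast, the 4 mucous genes called higher in duodenum were detected on every stomach array.

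**Figure D4:**
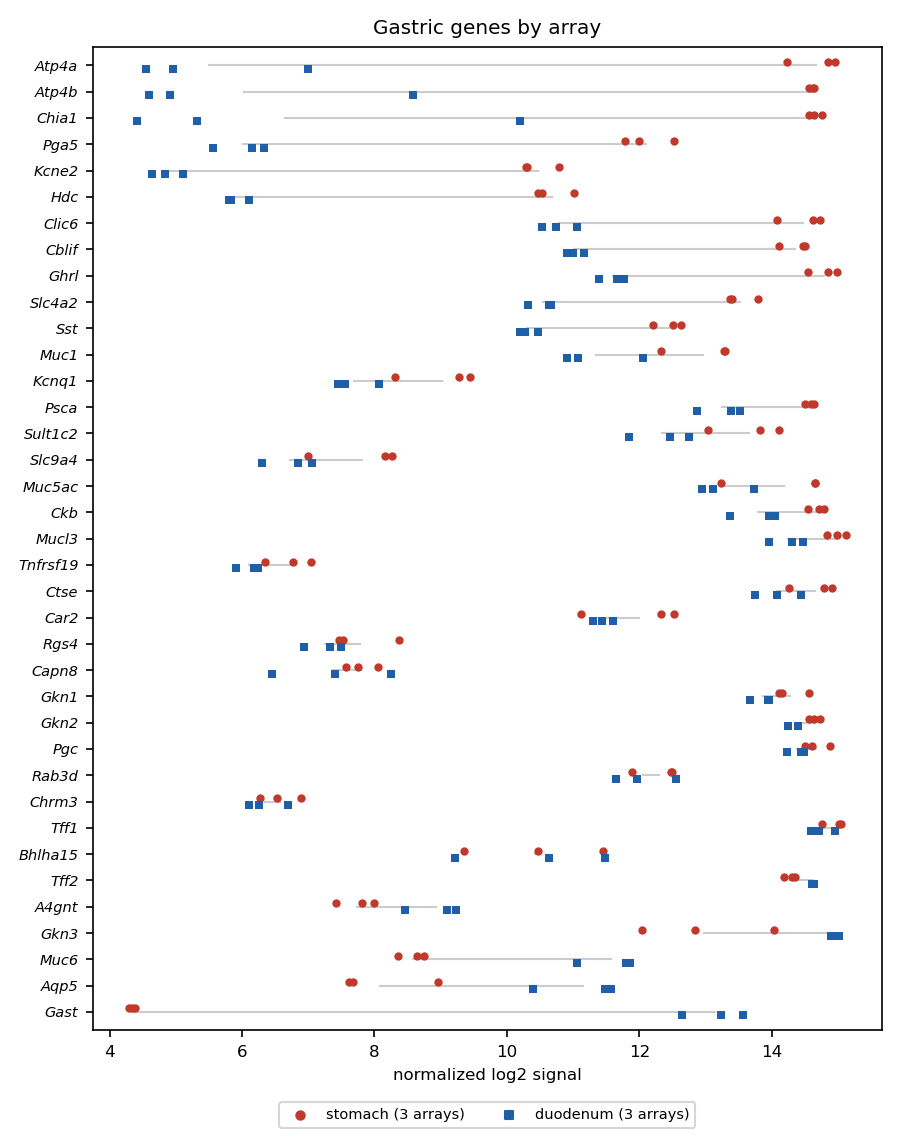
Normalized log2 signals of the 32 gastric genes detected on all 6 arrays and of Atp4a, Atp4b, Chia1, Kcne2 and Gast in wild-type stomach (red circles) and wild-type duodenum (blue squares), 1 point an array, ordered by the difference of stomach minus duodenum. Atp4a at the top and Gast at the bottom are separated by 7 or more log2 units on every array, while Gkn2, Pgc, Tff1 and Tff2 sit above 14 in both organs.

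The same probes were read in other arrays of the series. Of the 32 genes detected in both organs, 18 were detected on no wild-type submandibular gland array and 10 on all 3. Gkn1, Gkn2, Tff1 and Muc5ac were among the 18, and Gast was likewise undetected there. The highest submandibular signals of these genes, on the linear scale of the deposited file, were 59.8, 66.0, 78.9, 60.1 and 54.3. In Car6-/- mice, 24 of the 32 were detected on all 3 stomach and all 3 duodenum arrays. There, 1 duodenum differed from the others. Gkn1 signals on the same linear scale were 16967, 18967 and 31038 in Car6-/- stomach, against 10421, 8076 and 205 in Car6-/- duodenum. Gast signals were 50.05, 58.5 and 52.7 in Car6-/- stomach, against 2639, 1519 and 65.6 in Car6-/- duodenum. Tff2 signals were 16072, 14262 and 24986 in Car6-/- stomach, against 21431, 25184 and 22209 in Car6-/- duodenum. Duodenum replicate 3 of the Car6-/- mice thus did not detect Gast and was low in Gkn1 but not in Tff2, while Car6-/- duodenum replicates 1 and 2 held all 3 genes. Which stretch of duodenum each array holds was not tested, since no label gives it.

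Digestive hydrolases of the enterocyte brush border were the counterpart in duodenum. Of 17 on the array, a list that includes the secreted protein Prap1, 11 were tested. Of these, 10 were called higher in duodenum and none higher in stomach, with a median difference of -4.55, and 6 were detected on no stomach array. Sis, which splits sucrose and isomaltose, had 4.34, 4.35 and 4.36 in stomach, against 11.30, 12.92 and 12.99 in duodenum and was at least 57.5-fold higher in duodenum (log2 difference -8.05, SE 0.42, adjusted p = 1.94e-05). Prap1, an acidic protein of gut epithelium, had 4.62, 4.72 and 4.73 in stomach, against 14.14, 14.80 and 14.73 in duodenum and was at least 257-fold higher in duodenum. Akp3, intestinal alkaline phosphatase, was at least 35.9-fold higher in duodenum, Treh at least 13.96-fold and Mep1b, a subunit of the metalloprotease meprin, at least 18.2-fold. Tmprss15, enteropeptidase, which activates trypsinogen, differed by -4.55 (adjusted p = 0.000545). Anpep, aminopeptidase N, was the exception, with 11.65, 11.26 and 10.60 in stomach, against 9.89, 10.42 and 11.13 in duodenum. Its ranges overlapped and the difference was 0.69 (adjusted p = 0.228).

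Microvillus proteins moved with them. Of 17 on the array, 14 were tested, 10 were called higher in duodenum and 2 higher in stomach, with a median of -2.21. Ush1c, a scaffold of the links between microvilli, had 4.63, 4.79 and 4.47 in stomach, against 10.44, 11.41 and 11.41 in duodenum and was at least 23.4-fold higher in duodenum. The link cadherins Cdhr2 and Cdhr5 differed by -5.71 and -5.58, and Vil1, villin, by -4.50 (SE 0.30, adjusted p = 5.21e-05). Vil1 and both cadherins were detected on all stomach arrays, while 3 of the 14 were detected on none. Ezr, ezrin, and the villin-like gene Vill were higher in stomach, by 0.83 and 1.28 (adjusted p = 0.0444 and 0.0117), and leaving out any 1 array other than stomach replicate 3 left 1 of the 2 called. The duodenum arrays differed in level, and the brush border list averaged 10.01, 10.94 and 11.21 on duodenum replicates 1, 2 and 3.

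Fat absorption genes were called higher in duodenum for 16 of 20 tested and 27 on the array, with a median of -2.25. No stomach array detected 5 of the 20. Mttp, which loads lipid onto apolipoprotein B, was at least 8.75-fold higher in duodenum and Npc1l1, which takes up cholesterol, at least 3.87-fold. Of the paired sterol exporters, Abcg5 differed by -5.65 (adjusted p = 5.76e-06) and Abcg8 was at least 9.85-fold higher in duodenum. Mogat2, which rebuilds triglyceride in enterocytes, had 5.27, 5.65 and 5.31 in stomach, against 8.85, 10.24 and 10.20 in duodenum (log2 difference -4.36, SE 0.37, adjusted p = 0.000181). Apoc3, an apolipoprotein of chylomicrons, differed by -5.90. Apoa1, the main protein of high-density lipoprotein, broke the pattern, with 14.68, 14.60 and 14.56 in stomach, against 13.01, 14.35 and 14.17 in duodenum. All stomach values lay above the duodenum values, and the difference of 0.77 did not pass (adjusted p = 0.148). Fabp1 and Fabp2, the abundant fatty acid binding proteins of enterocytes, were detected on none of the 6 arrays, so their probes tell nothing of these genes.

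Nutrient transporters were called higher in duodenum for 12 of 17 tested and 27 on the array, none was called higher in stomach, and 8 were detected on no stomach array. Slc5a1, the sodium-glucose cotransporter, had 4.85, 4.54 and 5.21 in stomach, against 9.55, 10.73 and 11.09 in duodenum and was at least 15.3-fold higher in duodenum. Slc2a2, which passes glucose and fructose to the blood, was at least 7.04-fold higher in duodenum. Slc51a and Slc51b, the subunits of the bile acid exporter, were at least 22.8-fold and 7.15-fold higher in duodenum, and Slc7a9, a transporter of cystine and basic amino acids, at least 13.3-fold. The folate transporter Slc46a1 differed by -4.29 (adjusted p = 3.65e-05). Slc52a3, for riboflavin, and the amino acid transporter Slc7a8 did not pass, though Slc7a8 passed without stomach replicate 3, higher in stomach (adjusted p = 0.0430). The fructose pathway enzymes Khk, Tkfc and Fbp1, the 3 tested of 6 on the array, were all called higher in duodenum, with differences of -2.68, -2.98 and -3.06. The other Khk probe differed by -0.77 and was not called (adjusted p over probes = 0.259).

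Iron, zinc and calcium handling also marked the duodenum, with 8 of 13 tested genes, of 16 on the array, called higher there. Slc40a1, ferroportin, which exports iron to the blood, had 9.27, 9.14 and 8.77 in stomach, against 13.36, 13.78 and 13.84 in duodenum (log2 difference -4.59, SE 0.22, adjusted p = 1.19e-05). Heph, the oxidase that works with ferroportin, differed by -4.68 (adjusted p = 5.26e-05). Slc30a10, a manganese exporter, was at least 11.3-fold higher in duodenum and Trpv6, the apical calcium channel, at least 3.005-fold. The ferritin gene Fth1 and the metallothionein Mt1 were bright in both organs in overlapping ranges and did not pass (adjusted p = 0.994 and 0.966).

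Antimicrobial Paneth cell and Reg family genes were called higher in duodenum for 12 of 13 tested and 16 on the array, with a median of -5.06. All 13 were detected on every duodenum array and only 1 on every stomach array. No stomach array detected 7 of them, so the filter fixed the direction of those 7. Defa20, an alpha-defensin, had 4.34, 4.37 and 4.53 in stomach, against 12.21, 14.73 and 14.10 in duodenum and was at least 140-fold higher in duodenum (log2 difference -9.27, SE 0.56, adjusted p = 3.65e-05). Itln1, an intelectin, was at least 27.6-fold higher in duodenum and Defa26 at least 8.93-fold. Alpha-defensin genes are near-identical in sequence, so a probe may also read relatives. The Reg genes differed between arrays of stomach. Reg3b, a lectin that binds bacterial wall, had 4.37, 4.42 and 9.11 in stomach, against 13.82, 12.31 and 14.68 in duodenum, and only stomach replicate 3 detected it among the stomach arrays. Its difference was -7.63 (SE 1.24, adjusted p = 0.00417).

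Pancreatic acinar genes gave the most uneven pattern. All 23 on the array were tested, and 20 were called higher in duodenum and none higher in stomach, with a median of -5.56. The list averaged 7.90, 7.91 and 11.85 on stomach replicates 1, 2 and 3, against 14.62, 13.86 and 14.42 on duodenum replicates 1, 2 and 3. Ctrb1, a chymotrypsinogen, had 4.42, 4.53 and 11.03 in stomach, against 14.70, 14.23 and 14.91 in duodenum. Stomach replicates 1 and 2 were at background for it and replicate 3 was not. Gp2, a zymogen granule protein, differed by -7.84 and Prss2, a trypsinogen, by -7.37 (adjusted p = 0.0132 and 0.00464). Without duodenum replicate 3 the count called was 11, and Gp2 and Cela3b were among those lost (adjusted p = 0.0578 and 0.0585). Without stomach replicate 3 it was 21 and the median was -6.75, and with no filter on detection it was 11. Not every acinar gene was low in stomach, since Clps, the colipase, had 15.12, 15.12 and 14.93 in stomach, against 14.98, 14.70 and 14.54 in duodenum (log2 difference 0.32, SE 0.19, adjusted p = 0.265). The part of attached pancreas in these values was not tested.

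**Figure D5:**
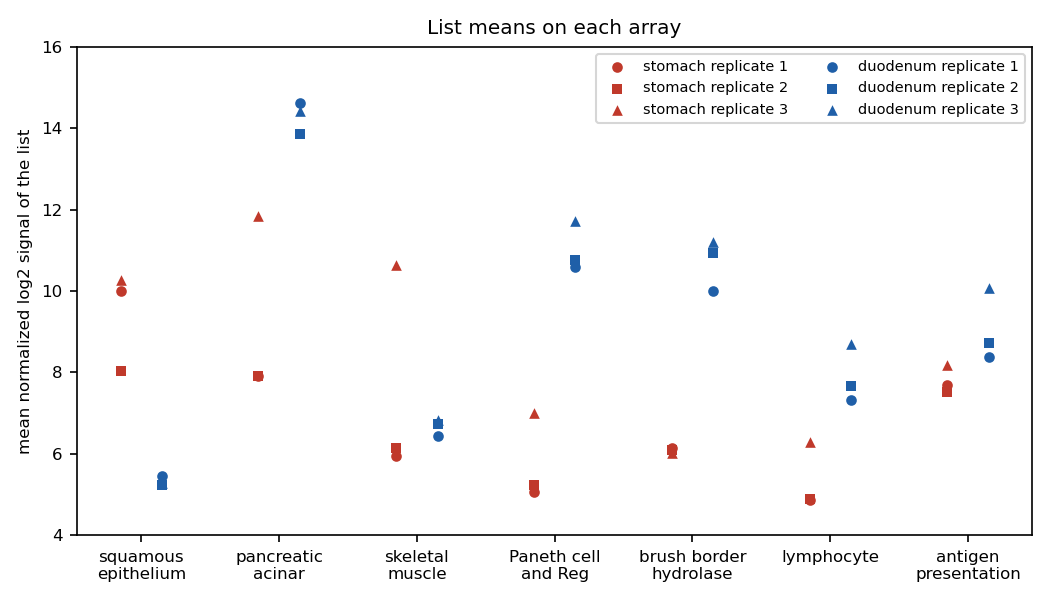
Mean normalized log2 signal of the tested genes of 7 lists on each array, stomach (red) left of duodenum (blue), with the replicate shown by the marker. Stomach replicate 3 averaged 11.85 for pancreatic acinar and 10.64 for skeletal muscle genes, above the other stomach arrays, and stomach replicate 2 averaged 8.04 for squamous genes, below them.

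Stomach replicate 3 also stood apart in skeletal muscle genes. The 6 tested of 19 on the array averaged 5.93, 6.13 and 10.64 on stomach replicates 1, 2 and 3, against 6.44, 6.74 and 6.82 in duodenum, and none was called. Their median difference was 0.78 with replicate 3 and -0.60 without it, when 2 were called higher in duodenum. Zg16, a granule lectin of both goblet and acinar cells, and the acinar and Paneth gene Reg1 were high on this array as well, and their calls (adjusted p = 0.0422 and 0.0183) ended without any 1 array other than stomach replicate 3 (adjusted p up to 0.122 and 0.0663).

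Goblet cell genes were called higher in duodenum for 6 of 8 tested and 11 on the array, with a median of -3.51. Muc13, a membrane mucin of intestinal epithelium, had 4.96, 4.61 and 4.67 in stomach, against 12.40, 13.29 and 13.79 in duodenum and was at least 96.4-fold higher in duodenum (log2 difference -8.41, SE 0.34, adjusted p = 7.54e-06). Tff3, the intestinal trefoil peptide, was at least 26.6-fold higher in duodenum, whereas Tff1 and Tff2 differed by 0.18 and -0.34. Clca1, a goblet cell secretory protein, differed by -4.90 (adjusted p = 5.26e-05). Spdef, a factor of goblet and mucous cells, and Bcas1 were detected on every array and did not pass. Leaving out stomach replicate 2 or any 1 duodenum array left 3 called, and Muc13, Tff3 and Clca1 stayed called without each array in turn.

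Intestinal hormone genes were called higher in duodenum for 7 of 16 tested and 23 on the array. Another 2, Chga and the factor Isl1, were called higher in stomach, and 5 of the 16 were detected on no stomach array. Sct, secretin, which answers acid in the duodenum, had 5.76, 6.37 and 6.29 in stomach, against 11.08, 11.62 and 11.53 in duodenum (log2 difference -5.27, SE 0.24, adjusted p = 1.15e-05). Cck, cholecystokinin, had 4.40, 4.37 and 4.64 in stomach, against 7.29, 8.22 and 7.95 in duodenum and was at least 2.93-fold higher in duodenum. Tph1, which makes serotonin in enterochromaffin cells, was at least 2.23-fold higher in duodenum and Pyy differed by -2.40. Gcg, the glucagon precursor gene, was detected on every array with a difference of -0.07 (adjusted p = 0.934). Gal, the neuropeptide galanin, from the nerve and glia list, had 4.83, 5.26 and 7.17 in stomach, against 12.70, 9.74 and 11.76 in duodenum (log2 difference -5.65, SE 0.82, adjusted p = 0.00255).

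Enzymes of drug metabolism were called higher in duodenum for 14 of 26 tested and 38 on the array, and higher in stomach for 1. That 1 gene was the glutathione transferase Gsta4, at 0.99 (adjusted p = 0.0148), and leaving out stomach replicate 2 or duodenum replicate 3 left none. Cyp4f14, a fatty acid hydroxylase, had 4.48, 4.39 and 4.40 in stomach, against 10.92, 11.83 and 12.33 in duodenum and was at least 35.3-fold higher in duodenum. Cyp3a11, a main drug-oxidizing enzyme of mouse, was at least 8.95-fold higher in duodenum, Cyp3a25 at least 6.11-fold and Cyp2d26 at least 8.31-fold. Cyp2b10 differed by -4.85 (adjusted p = 0.000160). P450 genes of a subfamily resemble each other, so a probe may read more than its own gene. The glutathione transferase Gsta1 and the P450 Cyp2c65 were detected in both organs in overlapping ranges, while 6 of the 26 were detected on no stomach array. Cps1, which starts the urea cycle in liver and intestine, was at least 23.3-fold higher in duodenum. 2310057J18Rik, a gene with no name here, had 5.52, 4.38 and 4.51 in stomach, against 12.76, 12.93 and 11.78 in duodenum (log2 difference -7.69, SE 0.39, adjusted p = 1.79e-05).

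Junction and keratin genes divided by member. Of 19 tight junction genes on the array, 14 were tested, of which 7 were called higher in duodenum and 2 higher in stomach, Cldn18 and F11r. Cldn2, a claudin that lets cations and water pass, had 5.04, 4.53 and 6.14 in stomach, against 11.82, 11.30 and 11.33 in duodenum (log2 difference -6.24, SE 0.39, adjusted p = 3.93e-05). Cldn15, the other cation-permeable claudin of gut, differed by -4.35, and Cldn3 was at least 8.76-fold higher in duodenum. Cldn18, the stomach claudin, was higher in stomach by 1.21 (adjusted p = 0.00621) and was bright in both organs. Occludin, Ocln, and Cldn12 did not pass. Among the 6 keratins of simple epithelium, all tested, Krt20 and Krt7 were higher in duodenum, with differences of -2.71 and -1.40, and Krt23 higher in stomach, by 1.49 (adjusted p = 0.000924, 0.0124 and 0.00129). Krt8, Krt18 and Krt19, found in nearly all simple epithelia, were detected throughout and did not pass.

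Cell cycle genes that passed the test were higher in duodenum. Of 27 cell cycle genes on the array, 19 were tested, of which 9 were called higher in duodenum and none higher in stomach, with a median of -0.68. Plk1 and Cdk1, kinases of mitosis, differed by -1.49 and -1.11, and Top2a, which untangles DNA, by -1.43 (adjusted p = 0.00547, 0.00621 and 0.00912). The count fell to 5 without stomach replicate 1, to 4 without duodenum replicate 2 or 3, and to 4 with median scaling. The crypt and stem cell list had a median of 0.04, with 5 of its 9 tested genes, of 14 on the array, positive and 4 negative. Its 3 called genes, Olfm4, Axin2 and Cd44, were higher in duodenum, and only Olfm4 was called without duodenum replicate 2. Olfm4, a marker of crypt base cells, differed by -4.53 (adjusted p = 0.000672), while Bmi1 and Lrig1, also linked to stem cells, did not pass.

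Lymphocyte genes were called higher in duodenum for 8 of 10 tested and 20 on the array, with a median of -2.43. All 10 were detected on every duodenum array and none on every stomach array. No stomach array detected 3 of them, so the filter fixed the direction of those 3. The list averaged 4.87, 4.89 and 6.28 on stomach replicates 1, 2 and 3, against 7.33, 7.67 and 8.70 in duodenum, so replicate 3 was the highest array of each organ. Ccl5, a chemokine of T cells, had 4.80, 4.68 and 5.88 in stomach, against 8.60, 9.17 and 11.28 in duodenum (log2 difference -4.56, SE 0.66, adjusted p = 0.00249). Itgae, the integrin of intraepithelial lymphocytes, differed by -2.95, and the T cell genes Cd3g and Cd8b1 were at least 2.37-fold and 2.19-fold higher in duodenum. Pigr, which is on the list but is made by the epithelium, where it carries antibody across, differed by -4.10 (adjusted p = 0.00765). Of 15 antigen presentation genes, all on the array and tested, 5 were called higher in duodenum. That list averaged 8.37, 8.72 and 10.08 on duodenum replicates 1, 2 and 3, so replicate 3 was the highest, and the count was 1 without stomach replicate 1, 2 without stomach replicate 2 and 3 without duodenum replicate 2. Macrophage genes did not separate the organs, with 0 of 12 tested called by limma, 3 at an unadjusted p under 0.05, and a median of 0.06. Without stomach replicate 3, 2 macrophage genes were called higher in duodenum.

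Genes of tissue below the epithelium had small median differences. Smooth muscle genes were called higher in stomach for 5 of 18 tested and 20 on the array, with a median of 0.32, and leaving out any 1 array other than stomach replicate 3 left 2 or 3 called. Csrp1 and Pgm5, proteins of the muscle cell's adhesions, were higher in stomach by 1.05 and 1.18 (adjusted p = 0.00990 and 0.00731), while Actg2, the enteric smooth muscle actin, and Myh11, smooth muscle myosin, differed by 0.06 and -0.01 and did not pass. The other Pgm5 probe differed by -0.13 and was not called (adjusted p over probes = 0.757). Matrix genes were called higher in stomach for 4 of 15 tested and 17 on the array, with a median of 0.59, namely Mgp, Ogn, Col6a2 and Sparc, with differences of 1.56, 1.21, 1.01 and 1.002. The Col6a2 call ended without duodenum replicate 3 (adjusted p = 0.0549).

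Smaller marker lists had few genes tested. Over all genes, 12.1% were called higher in stomach and 10.1% in duodenum. Endothelial genes were called higher in stomach for 1 of 8 tested, near the share over all genes. That gene was Plvap, and its call ended without any 1 array other than stomach replicate 3 (adjusted p up to 0.0882). Nerve and glia genes had 2 of 5 called higher in stomach, Stmn2 and Uchl1, and 1 higher in duodenum, Gal. The Stmn2 call ended without stomach replicate 1 or 2 or duodenum replicate 2 (adjusted p up to 0.0975), and the Uchl1 call without duodenum replicate 2 or 3 (adjusted p up to 0.0567). Hepatocyte genes had 2 of 6 called higher in stomach, one of them Hp, and 2 higher in duodenum, one of them Cps1. The other Hp probe differed by 0.46 and was not called (adjusted p over probes = 0.241). The Hp call ended without any 1 duodenum array (adjusted p up to 0.131). Fat cell genes had 2 of 7 called higher in stomach, Lpl and Cidea, and 1 higher in duodenum, Cidec. The Cidea call ended without any 1 array other than stomach replicate 2 and the Cidec call without any 1 other than stomach replicate 3 (adjusted p up to 0.112 and 0.144). None was called of 1 pancreatic islet gene, 2 spleen and lymph node genes and 1 gene of interstitial cells tested.

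Mitochondrial respiratory chain genes were called higher in stomach about as often as other genes. None was called higher in duodenum, against 10.1% of all genes. Of 44 on the array, 41 were tested, 40 had a positive difference and 5 were called higher in stomach, near the 12.1% of all genes, with a median of 0.44 against 0.06 over all genes. Atp5b, a catalytic subunit of ATP synthase, had 15.02, 14.89 and 14.80 in stomach, against 11.79, 13.79 and 12.43 in duodenum (log2 difference 2.23, SE 0.45, adjusted p = 0.0105). Cox6a1, of cytochrome oxidase, differed by 0.83 (adjusted p = 0.0124), a call that ended without stomach replicate 2 or duodenum replicate 3 (adjusted p up to 0.0586) or with median scaling (adjusted p = 0.103), and the other Cox6a1 probe differed by 0.65 and was not called (adjusted p over probes = 0.0527). The count of calls was 1 with median scaling, 11 with no background correction, 20 with array weights, 1 without stomach replicate 2 or duodenum replicate 3, and 2 without duodenum replicate 2.

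The same contrast was made in Car6-/- mice, which are separate animals from the wild type. There 4465 of 8641 genes (51.7%) were called. Of 1878 genes called in wild type and tested in Car6-/- mice, 1754 (93.4%) were called in the same direction, which is 40.9% of the 4286 Car6-/- calls among genes tested in both, and 1 was called in the opposite direction. Of 1247 with at least a 2-fold difference in wild type, 1203 (96.5%) were called in the same direction. In Car6-/- mice the differences were 5.04 for Muc5ac (adjusted p = 0.0358), 3.39 for Gkn1 (adjusted p = 0.0959), 2.19 for Ctse (adjusted p = 0.00526) and -0.05 for Tff2 (adjusted p = 0.840). Car6-/- duodenum replicate 3 was the array low in Muc5ac, Gkn1 and Ctse. No gene of 9411 (0%) passed a test of whether the organ difference itself differed between genotypes with limma, where 1120 had an unadjusted p under 0.05 and the smallest adjusted p was 0.103.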

How the data were processed

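Total RNA of whole tissue, extracted with RNeasy and biotin-labelled from 300 ng per the labels' protocols, was hybridised to Illumina MouseRef-8 bead arrays. The authors deposited a signal intensity and a detection p-value per probe and array, not normalized, and a table of log2 values normalized within each tissue, which was not used to compare organs. No scanner software or setting is given in the sources used here. For the comparison, deposited intensity values of the 6 arrays were processed together with limma 3.58.1 in R 4.3.3 (neqc, with detection p-values in place of control probes, offset 16, quantile normalization). Probes with a detection p-value under 0.01 on at least 3 arrays were kept, and each gene took its brightest kept probe, so 11340 probes gave 8786 genes, 633 of them without a symbol here. Organs were compared with lmFit and eBayes and Benjamini-Hochberg adjustment at 0.05, with no block. Because the labels name no mouse for an array, p-values measure the spread between these samples. Where an organ detected a gene on none of its arrays, the fold is a bound, the bright organ's mean against the higher, per array, of the lowest detected signal and the gene's own, computed without background correction. Probes of 1 gene differed in sign for 531 of 1936 genes with several kept probes, and none was called in opposite directions. Gene names are those of the platform table, updated through RefSeq, and 23978 of 25697 probes had 1 gene. The number of arrays limits the precision, and the median SE was 0.222 on the log2 scale. In simulated data over 8786 genes, 100 genes were changed by 1 on the log2 scale and 100 by 2, with independent normal noise for each gene. Of these, 43% of genes changed by 1 and 83% of those changed by 2 were recovered, with 7 false calls. The arrays had 22.3% of genes called and shifts shared by many genes, so these shares do not measure recovery or false calls in this comparison.

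Members and lists were chosen with earlier results of these data known. Genes were drawn from a rule, and not every gene that it takes is described. The rule takes the 15 highest differences in each direction, every called regional factor, and every gastric gene detected on all 6 arrays. Up to 6 called members of each list with the largest differences are taken too. So are up to 3 uncalled members detected on all 6 arrays with the smallest differences. Gsta4, Cldn18, Ezr, Vill, Hrh2, Cckbr, Sox2, Isl1 and F11r lie outside the rule and were chosen after seeing their values. Alternatives changed the background correction, offset, normalization, filter, probe choice, array weights, replicate block and arrays.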

Additional observations from a re-analysis of the deposited data

How the results depend on the processing

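The 1956 calls became 3857 with array weights, whose estimation stopped before convergence, 4465 on the Car6-/- arrays and 1123 to 2427 with 1 array left out. The 637 genes at least 2-fold higher in stomach became 424 with no background correction, 1129 on the Car6-/- arrays and 472 to 680 with 1 array left out, and the 660 higher in duodenum became 1150 and 525 to 709. The share of calls higher in stomach was 54.4%, and 63.9% with median scaling. The count of gastric genes detected in both organs was 32, and 34 at a detection p under 0.05. With the replicate number as a replicate block the count of calls was 1908. After each gene's organ mean was subtracted, same-numbered stomach and duodenum arrays correlated at 0.0196, 0.249 and 0.230. Arrays with unlike numbers correlated at -0.245 to 0.1275, the highest being stomach replicate 1 with duodenum replicate 2. Stomach replicates 2 and 3 thus correlated best with the duodenum array of their own number, and stomach replicate 1 did not. Since the labels name no mouse for an array, the numbers were not taken as pairs, and whether they are pairs is not known.

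Of 182 named genes called, 137 kept their call under every alternative in which they were tested. With each array left out in turn, 140 did. Gast was among the genes not tested on the Car6-/- arrays. The median of the skeletal muscle list was between -0.60, without stomach replicate 3, and 1.86, without stomach replicate 1. On the Car6-/- arrays the sign turned for A4gnt (0.16), Anpep (-0.75), Car4 (-0.78), Ckb (-0.00048), Dpt (0.90), Myh11 (0.96) and Pparg (0.93). Muc6 and Krt7 were not called there (adjusted p = 0.191 and 0.583). With no filter on detection, 30 named calls ended, among them Ctrb1, Gkn3, Muc1, Kcnq1 and Zg16. The causes of these changes were not tested. Signals below the detection limit give bounds only.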
